A study of Drosophila melanogaster with 6 samples.

Results

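In brains of wandering Drosophila melanogaster larvae, 185 genes had a lower authors' group value both in larvae with ablated E347 neurons and in larvae with activated E347 neurons than in control larvae. They were chosen by their values: transcript FPKM were summed per gene, the control sum had to reach 10 FPKM in both tables that hold the control group, and log2((FPKM + 1)/(FPKM + 1)) had to be -1 or lower in ablation over control and in activation over control. FPKM count sequenced fragments per length of transcript and per depth of library. Of the 14012 genes in the tables, 5982 reached the control minimum, and the 185 genes came from these. The 185 genes hold 268 of the 21081 listed transcripts. Counts of the set in lists, families and chromosome arms below stand beside this share of 185 in 5982, and no difference from it was tested.

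RNA came from 6 samples of pooled brains, 2 in each of 3 groups. Larvae grew at 25 °C, and their food held 35 g yeast per liter. Every group had the E347-GAL4 driver, which turns on UAS transgenes in cells named E347 neurons by the series. In ablation larvae w, E347-GAL4 stood over yw,UAS-ShiDN, with a further UAS-ShiDN/+ on the second chromosome, and pools held 100 and 91 brains. ShiDN is dominant-negative shibire (dynamin), and the series names its expression as the means of ablation. Activation larvae were w, E347-GAL4/yw;+;UAS-NachBac with pools of 100 and 97 brains, and NachBac is a bacterial sodium channel that makes neurons more excitable. Control larvae were w, E347-GAL4/w1118;+;+ with pools of 100 and 86 brains. Both manipulated groups thus carried a UAS transgene and a yw chromosome where control carried w1118, and for genes lower in both groups this shared background and the manipulation of E347 neurons cannot be told apart.

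Each table gives 1 value per group and none per replicate, so no value below has a spread between replicates and the sequencing depth is unknown. Both control comparisons use the same control samples, so the same control libraries enter both. The values that chose the genes are given as a description. In a bulk sample, fewer cells of a type and less RNA per cell cannot be told apart. Brain markers were present in all groups, but genes of another tissue differed between them. A list of 42 midgut genes summed to 1947 FPKM in ablation, against 16.8 FPKM in control, and to 20.5 FPKM in activation, against 16.4 FPKM in control. None of the 42 reached the control minimum and 28 were listed at 0 in control. Of 17 tested transcripts, 2 passed as higher at a deposited q of at most 0.05 in ablation, where 0.0856% of all did. The part of gut tissue in the ablation values below was not tested. The neuronal gene elav had 113 FPKM in ablation, against 97.2 FPKM in control, and 109 FPKM in activation, against 94.7 FPKM in control. The glial gene repo had 30.5 FPKM in ablation, against 44.8 FPKM in control, and 27.9 FPKM in activation, against 43.6 FPKM in control.

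Brains of wandering larvae are dissected at the end of larval life, when ecdysone prepares the animal for metamorphosis and other tissues lie close to the brain. Larval cuticle proteins are made by epidermis, glue proteins by the salivary gland, and contractile proteins by muscle, while the brain itself supplies neuronal, glial and general cellular transcripts.

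The 185 genes had a median control sum of 28.5 FPKM (range 10.4 to 2560 FPKM). Their median was 8.36 FPKM in ablation and 8.11 FPKM in activation. The median log2((FPKM + 1)/(FPKM + 1)) was -1.46 in ablation over control, where it was -0.04 over all 5982 genes, and -1.51 in activation over control, where it was also -0.04. The set had quartiles of -1.88 and -1.23 in ablation and of -2.03 and -1.24 in activation. In 32 genes the value was -2 or lower in both comparisons. A control sum of at least 100 FPKM was reached by 24 genes, and 64 genes had less than 20 FPKM. Of the 5982 genes, 5.23% were lower by at least 1 log2 unit in ablation and 5.13% in activation.

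**Figure D1:**
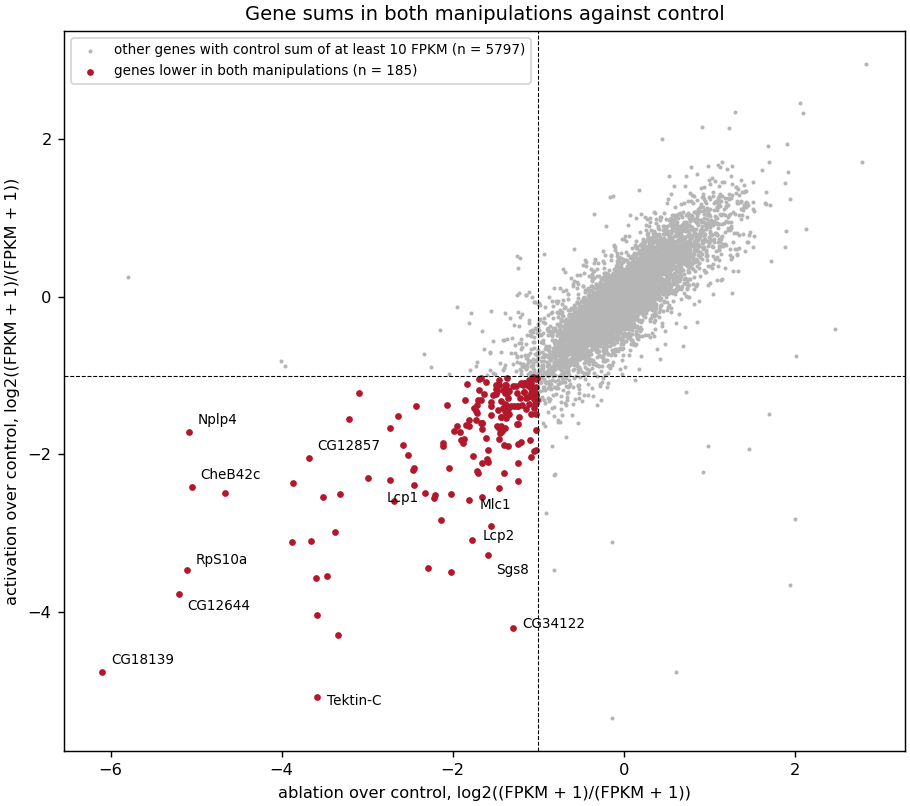
Each point is a gene with a control sum of at least 10 FPKM, placed by log2((FPKM + 1)/(FPKM + 1)) of ablation over control (x axis) and of activation over control (y axis), and the dashed lines mark -1. The 185 genes of the set (red) fill the lower left by construction, and the same control values enter both axes.

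The authors' deposited tables, made with Cuffdiff, call few of these differences. In ablation over control, 2 of 199 tested transcripts of the set passed at a deposited q of at most 0.05 as lower, and 0.0685% of all 11676 tested transcripts did so. None passed as higher, where 0.0856% of all did. In activation over control none of 205 tested transcripts passed, and 0% of all 11809 did. Without adjustment, at a p under 0.05 in the tables the authors deposited, 20 of the 199 transcripts of the set (10.1%) were lower in ablation, where 86 of all 11676 (0.737%) were. In activation 26 of the 205 (12.7%) were lower, where 143 of all 11809 (1.21%) were. None of the set was higher in ablation, where 153 of all transcripts (1.31%) were, and 1, of nAChRalpha5, was higher in activation, where 217 of all (1.84%) were. Since the set was drawn from these values, the counts describe it and test nothing. The smallest p over a gene's transcripts was under 0.05 in both deposited control tables for 14 genes, Lcp1, Lcp2, Lcp4, CG15353, Rpt2, Srp14, ND-23, Orct2, Su(fu), Caf1-105, CG4684, CG11975, CG7420 and CG32234. The same count over all genes was not made. The rule asked for a lower value in both comparisons and both use the same control libraries, so these 14 are also only a description.

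The called genes were CG12857 and Cpr49Ac. CG12857, an uncharacterised gene (dm3 chromosome arm 2R, locus 10645557 to 10647099), was listed at 0 in ablation, against 11.9 FPKM in control, and fell there with q = 0.0324 at p = 5e-05 in the authors' deposited table. In activation it had 2.04 FPKM, against 11.5 FPKM in control, with q = 0.915 in the authors' deposited table. Cpr49Ac, a cuticle protein gene (2R, 8274484 to 8277564), has 2 transcripts. Its RA transcript fell to 0.000654 FPKM in ablation, against 14.8 FPKM in control (q = 0.0324 in the authors' deposited table). Its RC transcript had 3.77 FPKM in ablation, against 7.08e-05 FPKM in control, so the gene sum was 3.77 FPKM in ablation and 14.8 FPKM in control. In activation the RA transcript had 4.64 FPKM, against 14.4 FPKM in control.

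Cuticle and apical matrix genes gave 8 members, with control sums from 12.3 to 729 FPKM. Lcp1, Lcp2 and Lcp4 encode larval cuticle proteins and lie together on chromosome arm 2R between 4318139 and 4325908. Lcp1 had 156 FPKM in ablation, against 729 FPKM in control, and 120 FPKM in activation, against 709 FPKM in control. Lcp4 had 127 FPKM in ablation, against 375 FPKM in control, and 47.8 FPKM in activation, against 365 FPKM in control. Lcp2 had 58.1 FPKM in ablation, against 200.3 FPKM in control, and 22.0 FPKM in activation, against 195 FPKM in control. All 3 were lower in activation than in ablation. The deposited q-values of Lcp1 were 0.181 in ablation and 0.182 in activation in the authors' deposited tables, so it did not pass. Lcp3, which lies between Lcp2 and Lcp4, had 134 FPKM in ablation, against 254 FPKM in control, and 36.0 FPKM in activation, against 247 FPKM in control. It stayed outside the set because its log2 value in ablation was -0.91.

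Cpr60D, another cuticle protein, had 10.8 FPKM in ablation, against 47.0 FPKM in control, and 3.13 FPKM in activation, against 45.6 FPKM in control. The gene yellow-e2, a secreted protein of the yellow family, had 3.22 FPKM in ablation, against 12.3 FPKM in control, and 2.00 FPKM in activation, against 11.97 FPKM in control. The gene rtv, or retroactive, a membrane protein needed to organise chitin in the trachea, had 5.01 FPKM in ablation, against 16.7 FPKM in control, and 5.82 FPKM in activation, against 16.2 FPKM in control. Cht11, a chitinase family member, had 8.41 FPKM in ablation, against 23.6 FPKM in control, and 8.33 FPKM in activation, against 23.0 FPKM in control. The 8 genes of this group had medians of -1.69 in ablation and -2.33 in activation.

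A list of 72 larval and pupal cuticle genes puts these values in context. Only 6 of the 72 reached the control minimum, and 4 of those belong to the set. In control 40 of the 72 were listed at 0. The list summed to 581 FPKM in ablation, against 1654 FPKM in control, and to 361 FPKM in activation, against 1608 FPKM in control. Of its tested transcripts, 1 of 21 passed at a deposited q of at most 0.05 as lower in ablation, where 0.0685% of all did. That transcript was RA of Cpr49Ac. None of 18 passed in activation, where 0% of all did. Cht2, a chitinase that also reached the minimum, had 35.2 FPKM in ablation, against 34.0 FPKM in control. Whether epidermis in the dissected pools had a part in the cuticle values was not tested.

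Muscle genes form a smaller group of 4. Mlp60A, a muscle LIM protein, had 7.11 FPKM in ablation, against 32.4 FPKM in control, and 6.22 FPKM in activation, against 31.5 FPKM in control. Mlc1, a myosin light chain, had 6.92 FPKM in ablation, against 26.7 FPKM in control, and 3.52 FPKM in activation, against 25.97 FPKM in control. Zasp66, a Z-disc protein, had 5.06 FPKM in ablation, against 15.0 FPKM in control, and 2.31 FPKM in activation, against 14.6 FPKM in control. Tm2, a tropomyosin, came close to the limit of the rule, with 4.70 FPKM in ablation, against 10.6 FPKM in control, and 3.44 FPKM in activation, against 10.3 FPKM in control. In the table of ablation and activation all 4 had the higher value in ablation. The 11 genes of the muscle list above the control minimum had medians of -0.76 in ablation and -0.88 in activation, with 8 of 11 below 0 in ablation and 10 of 11 in activation. The whole list of 24 genes summed to 338 FPKM in ablation, against 393 FPKM in control, and to 305 FPKM in activation, against 382 FPKM in control. Much of each sum came from Tm1, a tropomyosin gene outside the set, with 186 FPKM in ablation, against 183 FPKM in control, and 214 FPKM in activation, against 178 FPKM in control. The 7 genes above the control minimum outside the set ranged from -0.77 to 0.49 in ablation and from -1.59 to 0.26 in activation, 2 genes of the list were listed at 0 in control, and no transcript of the list had a deposited p under 0.05 against control. The part of muscle tissue in the pools was not tested.

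**Figure D2:**
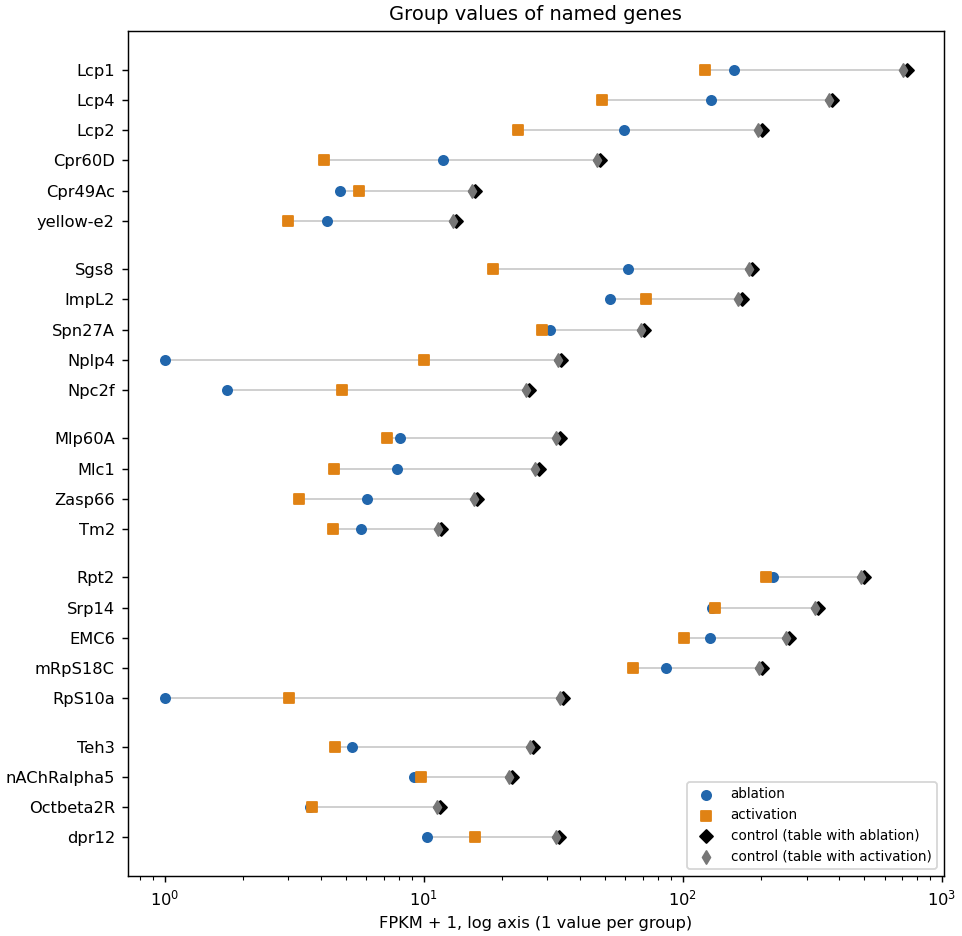
Authors' group values of 24 genes of the set as FPKM + 1 on a log axis, 1 value per group, with ablation as circles, activation as squares and control as diamonds (black in the table with ablation, grey in the table with activation). Nplp4 and RpS10a sit at the left edge in ablation because they are listed at 0 there, and the Lcp genes are lower in activation than in ablation.

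Secreted proteins included hormone and carrier genes. ImpL2 encodes a secreted protein that binds insulin-like peptides, and it is induced by ecdysone. It had 51.1 FPKM in ablation, against 167 FPKM in control, and 71.2 FPKM in activation, against 163 FPKM in control. Its transcripts did not share this order. The RC transcript had 22.3 FPKM in ablation, against 130 FPKM in control, and 6.56 FPKM in activation, against 126 FPKM in control. The RA transcript had 22.9 FPKM in ablation, against 10.9 FPKM in control, and 34.9 FPKM in activation, against 10.6 FPKM in control. The RB transcript had 5.86 FPKM in ablation, against 26.7 FPKM in control, and 29.7 FPKM in activation, against 25.96 FPKM in control. RC was thus lower in both groups, RB lower in ablation alone, and RA higher in both. None of these transcripts passed at the deposited q, and RC in ablation had p = 0.0198 in the authors' deposited table. ImpL2 was 1 of 10 ecdysone response genes above the control minimum and the only one of them in the set. The other 9 ranged from -0.53 to 0.55 in ablation and from -0.40 to 0.64 in activation. Of the list's 37 tested transcripts, 1 passed at a deposited q of at most 0.05 as lower in ablation, and it was not of ImpL2. Over all tested transcripts 0.0685% did so. None of 40 passed in activation.

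Sgs8, a salivary gland glue protein, had 60.5 FPKM in ablation, against 184 FPKM in control, and 17.6 FPKM in activation, against 179 FPKM in control. The other 2 salivary genes above the minimum had log2 values of 0.06 and 0.86 in ablation and of -0.32 and -0.29 in activation. The salivary list of 15 genes summed to 200.5 FPKM in ablation, against 277 FPKM in control, and to 197 FPKM in activation, against 270 FPKM in control, with 3 genes at 0 in control, and the part of salivary tissue was not tested. Nplp4, a neuropeptide-like precursor, was listed at 0 in ablation, against 32.8 FPKM in control, and had 9.04 FPKM in activation, against 32.0 FPKM in control. Npc2f, of a family of sterol-binding secreted proteins, had 0.743 FPKM in ablation, against 24.5 FPKM in control, and 3.82 FPKM in activation, against 23.8 FPKM in control. Both were lower in ablation than in activation, the reverse of the order seen for Sgs8.

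CheB42c, from a family of secreted proteins of taste organs, had 0.200 FPKM in ablation, against 38.7 FPKM in control, and 6.26 FPKM in activation, against 37.6 FPKM in control. Of 12 CheB genes it was the only one to reach the control minimum, and 10 were listed at 0 in control. Spn27A, a serpin that restrains Toll signalling and melanisation, had 29.6 FPKM in ablation, against 70.0 FPKM in control, and 27.5 FPKM in activation, against 68.1 FPKM in control. The gene ana, or anachronism, a glycoprotein that glia secrete to hold neuroblasts quiescent, had 4.52 FPKM in ablation, against 10.4 FPKM in control, and 3.20 FPKM in activation, against 10.1 FPKM in control. The group also holds sPLA2, crim and tal-AA, and its 10 genes had medians of -1.64 in ablation and -1.52 in activation.

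The neuronal genes of the set had low to moderate levels. Teh3, a subunit that modulates the sodium channel para, had 4.27 FPKM in ablation, against 25.3 FPKM in control, and 3.56 FPKM in activation, against 24.6 FPKM in control. The 5 genes of its family summed to 61.7 FPKM in ablation, against 48.0 FPKM in control. In activation they summed to 42.1 FPKM, against 46.7 FPKM in control. The 1 other gene of this family above the minimum lay at -0.27 in ablation and -0.50 in activation. The gene nAChRalpha5, a nicotinic acetylcholine receptor subunit, had 8.18 FPKM in ablation, against 21.0 FPKM in control, and 8.79 FPKM in activation, against 20.4 FPKM in control. Octbeta2R, an octopamine receptor, had 2.65 FPKM in ablation, against 10.5 FPKM in control, and 2.70 FPKM in activation, against 10.2 FPKM in control. The 6 other nicotinic subunits above the minimum ranged from -0.52 to 0.83 in ablation and from -0.49 to 0.70 in activation. In nAChRalpha5 the RC transcript had 4.65 FPKM in ablation, against 18.7 FPKM in control, while the RB transcript had 6.13 FPKM in activation, against 0.000614 FPKM in control (q = 0.915 at p = 0.00935 in the authors' deposited table).

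Synaptic and surface proteins add further members. CG4684, a synonym of nwk in the reference annotation, encodes a synaptic adaptor that limits growth of the neuromuscular junction, and it had 22.3 FPKM in ablation, against 48.2 FPKM in control, and 16.1 FPKM in activation, against 46.9 FPKM in control. CG16976, a synonym of Fife, encodes an active zone protein and had 5.28 FPKM in ablation, against 12.4 FPKM in control, and 2.70 FPKM in activation, against 12.05 FPKM in control. CG13792 and CG34400, also in the set, are synonyms of Slob and dysc, which act on the potassium channel slowpoke. For each of these synonyms the sum covers that CG number alone. Whether the whole named gene would meet the rule was not tested. The gene dpr12, an immunoglobulin superfamily protein of synaptic partner recognition, had 9.25 FPKM in ablation, against 32.3 FPKM in control, and 14.8 FPKM in activation, against 31.4 FPKM in control. The 20 dpr genes summed to 385 FPKM in ablation, against 276 FPKM in control. In activation they summed to 370 FPKM, against 269 FPKM in control. The 3 other dpr genes above the minimum ranged from -0.93 to 0.66 in ablation and from -1.04 to 0.81 in activation. The remaining genes of the neuronal group are beat-Vc, bdl, axed, Or43b, Sec15 and ric8a, and its 14 genes had medians of -1.21 in ablation and -1.40 in activation. The 13 genes of the neuron list that reached the control minimum went the other way. Their medians were 0.48 in ablation and 0.22 in activation, with 2 of 13 below 0 in each. None of these 13, and none of 12 neuroblast or 9 glial genes above the minimum, belongs to the set. Over all genes above the minimum 185 of 5982 belong to it, and whether these short lists differ from that share was not tested.

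Protein synthesis, sorting and turnover gave 16 genes, among them some of the highest values. Rpt2, an ATPase of the proteasome's regulatory particle, had 221 FPKM in ablation, against 498 FPKM in control, and 209 FPKM in activation, against 485 FPKM in control. Srp14, a protein of the signal recognition particle, had 129 FPKM in ablation, against 331 FPKM in control, and 132 FPKM in activation, against 322 FPKM in control. EMC6, a subunit of the ER membrane protein complex, had 126 FPKM in ablation, against 256 FPKM in control, and 99.6 FPKM in activation, against 249 FPKM in control. No other Rpt ATPase, signal recognition particle protein or subunit of the ER membrane protein complex above the control minimum lay at -1 or lower in either comparison. The other 5 Rpt ATPases lay between -0.19 and 0.13 in ablation and between -0.19 and 0.31 in activation. The other 5 signal recognition particle proteins ranged from -0.71 to 1.20 in ablation and from -0.81 to 1.15 in activation. The highest of these was Srp9, which pairs with Srp14, and it had 106 FPKM in ablation, against 45.7 FPKM in control, and 100.1 FPKM in activation, against 44.6 FPKM in control. The other 7 subunits of the ER membrane protein complex ranged from -0.29 to 1.11 in ablation and from -0.17 to 0.82 in activation.

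The mitochondrial ribosomal proteins mRpS18C and mRpS17 were 2 of 70 such genes above the minimum. The gene mRpS18C had 85.0 FPKM in ablation, against 201 FPKM in control, and 63.1 FPKM in activation, against 196 FPKM in control. Summed over all mitochondrial ribosomal genes, the value was 4693 FPKM in ablation, against 4431 FPKM in control, and 4194 FPKM in activation, against 4315 FPKM in control, so the family total stayed close to control. RpS10a, a paralogue of a cytosolic ribosomal protein, was listed at 0 in ablation, against 33.4 FPKM in control, and had 2.02 FPKM in activation, against 32.4 FPKM in control. It was the only one of 82 cytosolic ribosomal protein genes above the minimum in the set. Of 97 tested transcripts of this family, 1 passed at a deposited q of at most 0.05 as lower in ablation, and it was not of RpS10a. Over all tested transcripts 0.0685% did so. How reads common to RpS10a and its paralogue were counted was not tested. The gene ubl, a ubiquitin-like protein, had 77.7 FPKM in ablation, against 250.0 FPKM in control, and 97.2 FPKM in activation, against 243 FPKM in control. Other members act in vesicle traffic and membranes (Bet1, CHMP2B), in glycosylation and lipid anchors (Alg14, PGAP2), at the nuclear pore (Aladin) and in RNA processing (Pop5).

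**Figure D3:**
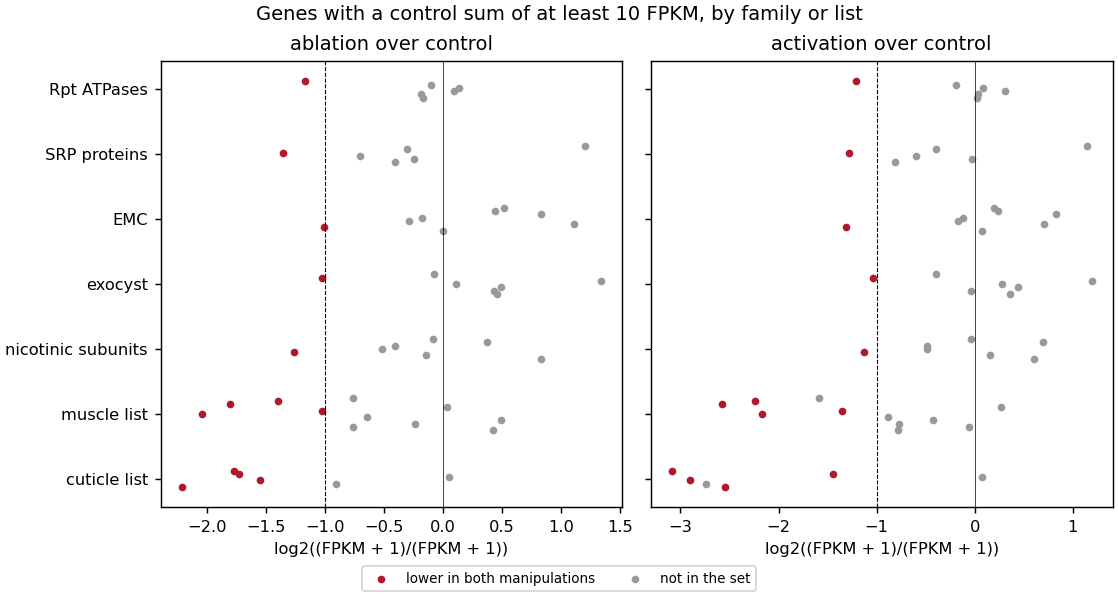
Genes with a control sum of at least 10 FPKM in 5 protein families and 2 marker lists, placed by log2((FPKM + 1)/(FPKM + 1)) of ablation over control (left) and activation over control (right), with genes of the set in red and the others in grey. In the Rpt ATPases, signal recognition particle (SRP), ER membrane protein complex (EMC), exocyst and nicotinic subunits a single gene lies left of the dashed line at -1. In the cuticle list 4 of 6 genes do so in the left panel and 5 of 6 in the right panel.

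Metabolic enzymes and transporters were the largest of the 8 role groups added after values were seen. They had 21 genes and medians of -1.35 in ablation and -1.23 in activation. ND-23, a subunit of respiratory complex I, had 109 FPKM in ablation, against 231 FPKM in control, and 93.1 FPKM in activation, against 225 FPKM in control. It was 1 of 32 such subunits above the minimum and the only one in the set. Prx6a, a peroxiredoxin, had 41.0 FPKM in ablation, against 117 FPKM in control, and 47.9 FPKM in activation, against 114 FPKM in control. Pgls, the lactonase of the pentose phosphate pathway, had 15.8 FPKM in ablation, against 60.4 FPKM in control, and 16.1 FPKM in activation, against 58.7 FPKM in control. Orct2, an organic cation transporter, had 22.6 FPKM in ablation, against 55.1 FPKM in control, and 16.8 FPKM in activation, against 53.6 FPKM in control. Both lipid droplet genes of the set were low, Seipin with 3.31 FPKM in ablation, against 15.05 FPKM in control, and Jabba with 4.61 FPKM in ablation, against 16.9 FPKM in control. In activation Seipin had 3.44 FPKM, against 14.6 FPKM in control, and Jabba had 7.53 FPKM, against 16.4 FPKM in control.

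Adh, the alcohol dehydrogenase that is abundant in fat body, had 9.57 FPKM in ablation, against 22.9 FPKM in control, and 9.72 FPKM in activation, against 22.3 FPKM in control. It was the only one of 9 fat body genes above the minimum to enter the set. The fat body list of 15 genes summed to 577 FPKM in ablation, against 296 FPKM in control, and to 214 FPKM in activation, against 288 FPKM in control, so its total did not follow Adh in ablation. The 9 genes above the minimum had medians of 0.99 in ablation and -1.12 in activation. In ablation 2 of the 9 lay below 0, and in activation 8 of the 9 did. The 2 inositol trisphosphate kinases are listed under 3 CG numbers, and the 2 of these numbers above the minimum were members. Over all 3 the sum was 16.0 FPKM in ablation, against 41.9 FPKM in control, and 14.3 FPKM in activation, against 40.7 FPKM in control. Whether each kinase as a whole would meet the rule was not tested. IP3K1 had 4.66 FPKM in ablation, against 19.9 FPKM in control, and 4.63 FPKM in activation, against 19.3 FPKM in control. CG15745, a synonym of IP3K2, had 5.81 FPKM in ablation, against 14.1 FPKM in control, and 5.93 FPKM in activation, against 13.8 FPKM in control.

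Regulators of gene expression and genome maintenance gave 7 genes. Su(fu), an inhibitor of Hedgehog signalling, had 17.8 FPKM in ablation, against 48.2 FPKM in control, and 19.5 FPKM in activation, against 46.8 FPKM in control. Taf11, a subunit of the general transcription factor TFIID, had 53.1 FPKM in ablation, against 139 FPKM in control, and 45.8 FPKM in activation, against 135 FPKM in control. Caf1-105, a histone chaperone subunit, had 14.5 FPKM in ablation, against 39.6 FPKM in control, and 17.3 FPKM in activation, against 38.5 FPKM in control. In ablation over activation these 3 lay between -0.27 and 0.18 log2 units. Xpac, of nucleotide excision repair, had 31.6 FPKM in ablation, against 68.1 FPKM in control, and 15.5 FPKM in activation, against 66.3 FPKM in control. HLH4C, CG11071 (a synonym of mamo, summed for that CG number alone) and Hus1-like complete the group.

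Both microtubule genes had large differences. Tektin-C, from a family of filament proteins of cilia and flagella, had 2.37 FPKM in ablation, against 39.5 FPKM in control, and 0.171 FPKM in activation, against 38.5 FPKM in control. Most of its control value came from the RB transcript, which had 0.000258 FPKM in ablation, against 28.8 FPKM in control, with q = 0.974 at p = 0.0112 in the authors' deposited table. The gene gammaTub37C, the gamma-tubulin of the female germline and early embryo, had 2.18 FPKM in ablation, against 11.3 FPKM in control, and 2.87 FPKM in activation, against 11.0 FPKM in control. The testis list had 1 gene above the control minimum and none in the set, and 16 of its 27 genes were listed at 0 in control. Of its tested transcripts, 1 of 6 passed at a deposited q of at most 0.05 as lower in ablation, where 0.0685% of all did. None of 7 passed in activation.

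The remaining 103 genes were assigned no role, which does not mean that all their roles are unknown, and 89 of them carry a CG number as their symbol. Some of these CG numbers are synonyms of named genes in the reference annotation, among them CG33464 (sli), CG34122 (plx), CG18139 (Hmx) and CG32234 (axo). Their medians were -1.60 in ablation and -1.63 in activation. They include the gene with the highest control value of the set, CG15353 (2L, 2006754 to 2007193), which had 846 FPKM in ablation, against 2560 FPKM in control, and 595 FPKM in activation, against 2489 FPKM in control. In the authors' deposited tables it had q = 0.106 in ablation and q = 0.0537 in activation. CG12644 had 4.01 FPKM in ablation, against 183 FPKM in control, and 12.1 FPKM in activation, against 178 FPKM in control. These differences were far larger than the median of the set, yet the authors' deposited table gave CG12644 p = 0.184 in ablation.

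Several genes of the set were close to absent outside control. CG34288 was listed at 0 in both ablation and activation, against 11.1 FPKM in control in the table with ablation and 10.8 FPKM in control in the table with activation. CG18139 was listed at 0 in ablation, against 67.4 FPKM in control, and had 1.45 FPKM in activation, against 65.5 FPKM in control. CG4631 was listed at 0 in ablation, against 11.6 FPKM in control, and had 0.426 FPKM in activation, against 11.3 FPKM in control. With RpS10a, CG12857 and Nplp4 these are the 6 genes of the set listed at 0 in ablation, and CG34288 is the 1 listed at 0 in activation. CG8701 had 0.513 FPKM in ablation, against 15.7 FPKM in control, and 0.401 FPKM in activation, against 15.3 FPKM in control. The gene flip had 1.33 FPKM in ablation, against 22.7 FPKM in control, and 0.173 FPKM in activation, against 22.0 FPKM in control. CG14757 had 1.32 FPKM in ablation, against 26.9 FPKM in control, and 0.644 FPKM in activation, against 26.1 FPKM in control. CG14086 was similar, with 1.53 FPKM in ablation, against 36.3 FPKM in control, and 3.20 FPKM in activation, against 35.2 FPKM in control. None of these genes passed at the deposited q except CG12857 in ablation.

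The authors' table of ablation and activation was not read by the rule, but it comes from the same samples. The rule set the same limit on both groups, so a median near 0 and a balance of higher and lower genes follow from the choice of the set, and the values are a description. The median log2((FPKM + 1)/(FPKM + 1)) of ablation over activation was 0.01 for the set and 0.00 for the other 5797 genes above the control minimum. Ablation had the higher value in 94 genes and the lower value in 90, and 1 gene was equal. The set was more widely spread: 133 of its genes (71.9%) lay within 0.5 log2 units of 0, against 90.5% of the other genes. At least 1 log2 unit separated the groups in 13 genes of the set that were lower in ablation (7.03% of the set) and in 8 that were higher (4.32% of the set). Over all 5982 genes, 50 were lower in ablation by as much (0.836%) and 45 were higher (0.752%). The median level in ablation was 8.36 FPKM in the set and 36.3 FPKM in the other genes, and the part of expression level in the wider spread was not tested.

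Among the genes lower in ablation than in activation, CG12857 was the only one called. It was listed at 0 in ablation, against 2.05 FPKM in activation, with q = 0.0163 at p = 5e-05 in the authors' deposited table, and 0.121% of all 12419 tested transcripts were called lower there. No transcript of the set was called higher in ablation, where 0.25% of all were. At an unadjusted deposited p under 0.05, 5 of the 205 transcripts of the set were lower (2.44%), where 209 of all 12419 (1.68%) were, and 4 were higher (1.95%), where 190 of all (1.53%) were. Nplp4 was listed at 0 in ablation, against 9.11 FPKM in activation (q = 0.999 in the authors' deposited table). CheB42c had 0.196 FPKM in ablation and 6.29 FPKM in activation, a log2 difference of -2.61. CG14567 had 0.597 FPKM in ablation and 6.12 FPKM in activation, CG15046 had 0.377 FPKM in ablation and 3.97 FPKM in activation, and CG17224 had 0.458 FPKM in ablation and 3.57 FPKM in activation. In all of these the group with the lower value was below 1 FPKM.

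The genes higher in ablation than in activation by at least 1 log2 unit had both high and low levels. CG34122 had 28.2 FPKM in ablation and 2.83 FPKM in activation, a log2 difference of 2.93 with q = 0.999 in the authors' deposited table. Sgs8 had 59.3 FPKM in ablation and 17.6 FPKM in activation, a log2 difference of 1.69. Lcp4 had 124.7 FPKM in ablation and 48.0 FPKM in activation, with q = 0.346 at p = 0.00265 in the authors' deposited table. Tektin-C had 2.33 FPKM in ablation and 0.173 FPKM in activation, CG4741 had 2.37 FPKM in ablation and 0.499 FPKM in activation, and CG11125 had 5.63 FPKM in ablation and 2.04 FPKM in activation. Lcp2 had 57.0 FPKM in ablation and 22.1 FPKM in activation, with q = 0.999 at p = 0.0407 in the authors' deposited table. None of these passed at the deposited q.

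**Figure D4:**
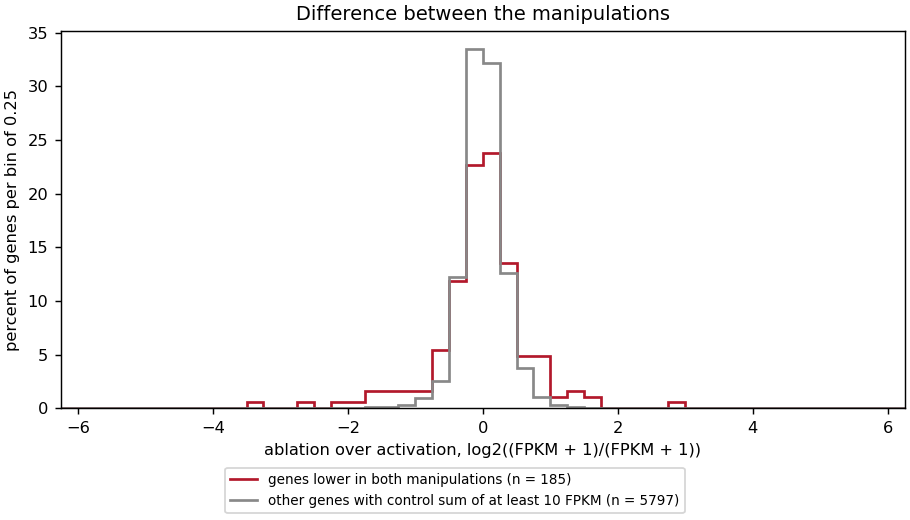
Percent of genes per bin of 0.25 in log2((FPKM + 1)/(FPKM + 1)) of ablation over activation, for the 185 genes of the set (red) and the 5797 other genes with a control sum of at least 10 FPKM (grey). Both are centred near 0, with medians of 0.01 and 0.00, and the set has more genes in the tails.

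Genes of the set more often had a single transcript and, where a length was found, tended to be short. One transcript was listed for 142 of the 185 genes (76.8%), against 61.0% of the other genes above the control minimum. The longest transcript in the reference annotation had a median of 1511 bases over the 168 genes with a length, against 2146 bases for the other genes. A length was found for 90.8% of the set and 96.8% of the other genes, and the part of missing lengths in this difference was not tested. By length, the set took 6.07% of the genes with transcripts under 1000 bases, 3.70% of those from 1000 to 2000 bases, 1.81% of those from 2000 to 4000 bases and 1.14% of longer ones. By chromosome arm it took 2.99% of the genes above the minimum on 2L, 3.30% on 2R, 3.32% on 3L, 3.67% on 3R and 2.12% on X. It took none of 60 on chromosome 4, where over all arms it took 185 of 5982. A locus shared with an overlapping gene was found for 35.7% of the set and 35.4% of the other genes.

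Some genes of the set lie next to each other. There were 9 pairs with at most 1 gene between them on the same arm and 5 with none. The same count was not made for other genes above the control minimum, so whether the set is clustered was not tested. CG15353 and Nplp4 are neighbours on 2L between 2006754 and 2008855, and the 3 uncharacterised genes CG14567, CG14566 and CG14572 lie within 21730862 to 21735542 on 3L. CG14566 had 58.0 FPKM in ablation, against 151 FPKM in control, and 71.5 FPKM in activation, against 147 FPKM in control. CG14572 had 26.4 FPKM in ablation, against 74.5 FPKM in control, and 12.7 FPKM in activation, against 72.4 FPKM in control. CG14567 had 0.609 FPKM in ablation, against 39.8 FPKM in control, and 6.08 FPKM in activation, against 38.7 FPKM in control. The order of the manipulations thus differed between these neighbours. Lcp1 and Lcp2 form a pair with no gene between them, and Lcp2 and Lcp4 one with Lcp3 between them. The other such pairs were formed by sPLA2, CG30503 and CG11125, by CG31815 and CG4631, and by CG5276 and CG5281. Some of these share a locus in the tables, so reads of overlapping genes may have been split between them.

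The lower sums did not always hold for each transcript. The genes were chosen by these sums, so the transcript counts below are a description. They were not made for other genes. The set has 43 genes with more than 1 transcript, and of their 126 transcripts 60 had at least 1 FPKM in control. Of these 60, 49 were lower in both manipulated groups, 7 were higher in both and 11 were higher in at least 1. Beside ImpL2, an example below that control level is Alp4, an alkaline phosphatase. Its RB transcript was listed at 0 in ablation, against 12.6 FPKM in control, and at 0 in activation, against 12.2 FPKM in control. Its RA transcript had 4.74 FPKM in ablation, against 5.71e-05 FPKM in control, and 4.70 FPKM in activation, against 5.58e-05 FPKM in control. Pfrx, which sets the level of a glycolytic regulator, had 5.40 FPKM of its RF transcript in ablation, against 26.4 FPKM in control, while its RE transcript had 6.64 FPKM in ablation, against 0.183 FPKM in control. In Mlc1 the transcript with reads also differed between the manipulations. In the table of both, RB had 6.78 FPKM in ablation and 0.000243 FPKM in activation, and RA had 0.000473 FPKM in ablation and 3.53 FPKM in activation. None of these transcripts of Alp4, Pfrx and Mlc1 passed at the deposited q against control.

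The limits of the rule cut through a continuous range. Just inside the fold limit, CG13287 had 21.1 FPKM in ablation, against 45.1 FPKM in control, and 21.2 FPKM in activation, against 43.9 FPKM in control, and ric8a and EMC6 lay at -1.02 and -1.01 in the smaller of their differences. Just outside it, CG2278 had 9.13 FPKM in ablation, against 19.5 FPKM in control, and 9.01 FPKM in activation, against 19.0 FPKM in control, and CG10581 and Marcal1 lay at -0.997 and -0.992. At the control minimum, CG4914 and ana lay just inside with 10.1 FPKM each in the lower of their control values, and CG9021 and blanks just outside with 9.64 FPKM and 9.49 FPKM.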

How the data were processed

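RNA-seq values of 6 pooled samples in 3 groups were used. TopHat2, Cufflinks and Cuffdiff ran on build dm3, per the submitters' processing notes. Versions, options and the annotation they used were not given in the sources used here. Files comprise 3 tables deposited by the authors, whose group "induction" was taken as activation. Their FPKM hold 1 value per group and were scaled within each table by the authors. The deposited log2 fold change is their ratio of group values, and the deposited test statistic is a score. Cuffdiff gave the deposited p-value and q-value for a difference between groups of 2 samples each. How it modelled the spread between pools is unknown, because its options were not given. The smallest deposited p-value is 5e-05. A transcript was called if its status was OK and its deposited q at most 0.05.

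FPKM were summed per CG number and compared as log2((FPKM + 1)/(FPKM + 1)), which understates changes of low genes. Names and transcript lengths came from a reference annotation of another build, matched for 168 genes of the set by locus tag and for 16 by synonym. A sum under a synonym covers that CG number alone, and whether the whole named gene would meet the rule was not tested. In the set, lengths were found only for genes matched by locus tag. Coordinates are the dm3 loci of the tables, counted from 1. Members, the 20 lists (488 entries) and the tests were chosen with earlier results of these data known, and 15 families and 8 role groups were added after values were seen. By rule, values were given for the 10 genes with the highest control sums, the 10 with the largest differences, the 10 most different between the manipulations, called genes, up to 4 members per list and genes at the limits. Others were chosen after their values were seen. Alternatives were other pseudocounts, control minimums, centring, gene values, q thresholds, normal p-values and a minimum of 1 FPKM. The computation was tested on simulated data. Protein features and promoter motifs were not analysed here. Software was Python 3.11.15 with numpy 2.4.6, scipy 1.17.1, pandas 2.3.3 and matplotlib 3.10.9.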

Additional observations from a re-analysis of the deposited data

Results flagged for a closer look

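CG12857 was listed at 0 in ablation, against 2.05 FPKM in activation, and the authors' deposited table gave this difference between the manipulations q = 0.0163. With 1 value per group and table, samples were not compared within a group.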

How the results depend on the processing

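The number of genes lower in both manipulations was 185, and it was 121 with a control minimum of 20 FPKM, 120 with a pseudocount of 5 and 429 when a gene's value was its transcript with the highest control value. It ranged from 204 to 262 under a pseudocount of 0.1, a control minimum of 5 FPKM, no control minimum and centring on the median gene, and all 185 genes were kept in these and in the 429. Genes of the set called in ablation against control numbered 2, and 0 with a control minimum of 20 FPKM, 5 with one of 5 FPKM, 6 with no minimum, 4 with normal p-values taken from the test statistic (Lcp1, CG12644, CG15353 and CG17105) and 0 with at least 1 FPKM in both groups. In activation against control 0 were called, 1 at a deposited q of at most 0.1 (CG15353) and 6 with normal p-values (Lcp1, CG12644, CG15353, Nplp4, Lcp4 and Sgs8). The 1 gene called in ablation against activation was lost (0) with a control minimum of 20 FPKM, normal p-values or at least 1 FPKM in both groups. Normal p-values cannot be formed where a group is at 0, and a gene at 0 has less than 1 FPKM. The median log2 difference of ablation over activation was 0.01, and -0.0047 after centring, 0.020 with a control minimum of 20 FPKM, 0 with one of 5 FPKM or none, 0.0022 and 0.0014 with pseudocounts of 0.1 and 5, and 0.00013 by highest transcript. For the other changes the cause was not tested. No paired analysis was possible because the tables hold 1 value per group, and leaving out replicates was not run for the same reason. Depth is unknown, so it sets no stated limit.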
